A study of Mus musculus with 5 samples.

Results

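The MEF2 genes Mef2a, Mef2c and Mef2d and the class IIa histone deacetylase (HDAC) genes Hdac4, Hdac5, Hdac7 and Hdac9 were taken by name as a transcription factor family and its repressor partners. Of these 7 names, 6 were found among the 12934 genes with deposited counts, 3 of them MEF2 genes and 3 class IIa HDAC genes. Hdac9 and the remaining family gene Mef2b were not analysed here.

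MEF2 proteins are MADS-box transcription factors that bind AT-rich DNA elements in the control regions of muscle, neuronal and signal-induced genes. Class IIa HDACs bind MEF2 through their N-terminal part and repress its targets, together with the NCoR and SMRT co-repressors and HDAC3. When kinases such as protein kinase D, CaMK or the salt-inducible kinases phosphorylate a class IIa HDAC, 14-3-3 proteins bind it, the complex leaves the nucleus, and MEF2 is freed to activate transcription.

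EpH4 is a mouse mammary epithelial cell line. All cells carried lentiviral Cas9, selected with blasticidin, and in addition, under puromycin selection, either a control guide RNA (sgControl, 3 libraries) or a guide RNA against Mef2d (sgMef2d, 2 libraries). The methods list a pair of guides against Mef2d and describe both the Cas9 cells and the guide-carrying cells as stable clones. They state in general that experiments were repeated independently, but neither they nor the labels say for these libraries which guide each carries, how many clones it holds, or whether it came from a separate culture. The p-values therefore measure only the spread between these libraries, which may be technical. Poly(A) RNA was sequenced, and the question of the comparison was which transcripts depend on MEF2D.

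The RefSeq promoter windows of the members, 250 bases before to 50 bases after an annotated start on GRCm38.p6, were searched on both strands for the MEF2 consensus (the 10-base element of a pyrimidine, TA, A or T at each of 4 positions, TA and a purine), the cAMP response element TGACGTCA, the CCAAT box, the GC box with the letters GGGCGG and the TATA box with the letters TATAAA. All 6 members matched by symbol, with 11 windows in all. The 4 members with a single window are shown from 100 bases before to 20 bases after the start, 5′ to 3′ on the gene's strand, because they include the targeted gene, the HDAC gene that passed the test below, and both genes with a consensus match. Capitals mark the MEF2 consensus.
Mef2d: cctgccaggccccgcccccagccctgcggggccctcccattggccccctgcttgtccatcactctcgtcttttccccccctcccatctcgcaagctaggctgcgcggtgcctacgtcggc
Mef2a: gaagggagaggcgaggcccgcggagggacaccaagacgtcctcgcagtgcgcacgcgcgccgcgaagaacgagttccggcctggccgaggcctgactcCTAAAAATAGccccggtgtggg
Hdac4: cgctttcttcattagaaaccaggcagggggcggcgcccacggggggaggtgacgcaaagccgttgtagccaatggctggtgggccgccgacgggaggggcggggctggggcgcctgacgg
Hdac5: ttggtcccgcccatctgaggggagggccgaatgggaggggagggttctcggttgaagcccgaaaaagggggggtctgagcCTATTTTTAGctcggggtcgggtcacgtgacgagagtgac

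These stretches lie at chr3:88142272-88142391 on the plus strand for Mef2d and, on the minus strand, at chr7:67372839-67372958 for Mef2a, chr1:92180322-92180441 for Hdac4 and chr11:102230153-102230272 for Hdac5. The consensus occurred in 2 of the 11 member windows. In Hdac5 it read CTATTTTTAG, from position -20 to -11 before the start (chr11:102230183-102230192). In Mef2a it read CTAAAAATAG and spanned the start itself, from position -2 to 8, counting the start as position 1 with no position 0 (chr7:67372851-67372860). Neither match overlapped another of the motifs searched. The windows of Mef2d, Mef2c, Hdac4 and Hdac7 did not hold these letters.

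For comparison, the MEF2 consensus was present in 1.54% of the 11978 windows of the genes tested and in 3.19% of all 32851 mouse windows. CCAAT was found in 5 of the 11 member windows (Mef2d, Hdac4, Hdac5 and 2 of Mef2c) and GGGCGG in 5 (Mef2d, Hdac4, Hdac5, 1 of Mef2c and 1 of Hdac7), against 38.4% and 63.3% of the windows of tested genes. TATAAA was found in 2 of the 3 Mef2c windows and in no other member window, against 6.98% of the windows of tested genes. The cAMP response element, found in 3.16% of those windows, occurred in 0 of the 11. These matches describe letters and are not evidence of binding.

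**Figure D1:**
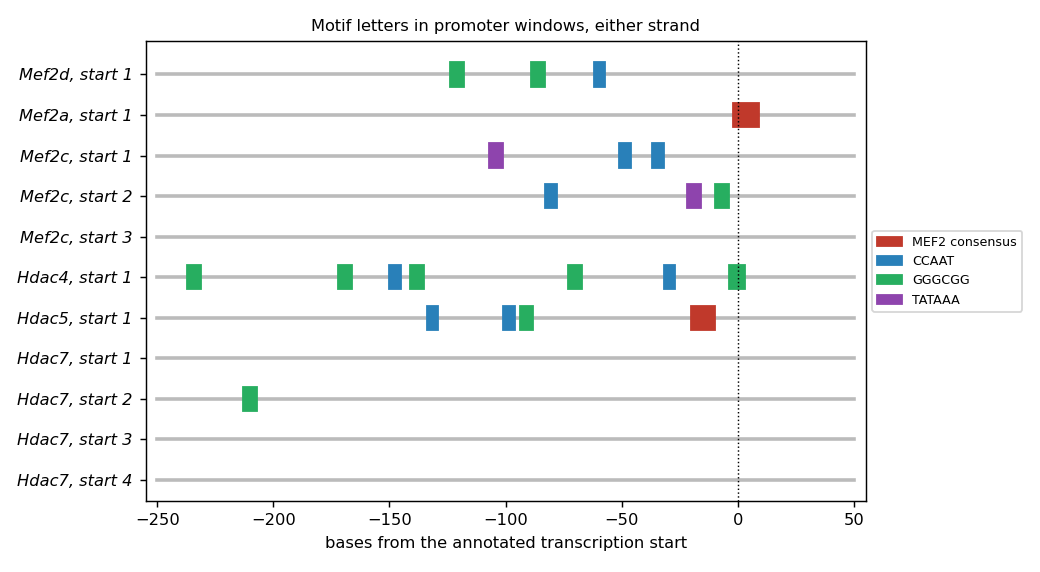
Motif matches in the 11 promoter windows of the members, numbered by ascending coordinate within a gene; the x axis gives bases from the annotated transcription start and each coloured block is a match on either strand. The MEF2 consensus appears only in the Hdac5 window, from -20 to -11, and in the Mef2a window, from -2 to 8.

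The counts summed to between 13601145 and 20498563 per library, and 12483 genes passed the expression filter, all 6 members among them. With edgeR's quasi-likelihood test, 992 genes passed an adjusted p of 0.05 (7.95%), of which 458 were higher (3.67%) and 534 lower (4.28%) in sgMef2d cells. This number depended on single libraries. It became 3639 of 12377 genes (29.4%) without sgControl replicate 1, 603 without sgControl replicate 2, 238 of 12683 (1.88%) without sgMef2d replicate 1 and 234 of 12801 (1.83%) without sgMef2d replicate 2. Luminal keratins marked the cells as epithelial: 5 of 6 luminal markers were listed, 1 of them (Krt18) lower in sgMef2d cells, with Krt18 at 705 ± 20.3 (SD, n = 3) CPM (counts scaled to a fixed library total) in sgControl. The basal markers Krt5, Krt14 and Trp63 were all higher in sgMef2d cells (3 of 3 called), and their summed level moved from 462–472 to 937–993 CPM. Krt14 made up most of this sum, with means of 439 CPM in sgControl and 902 CPM in sgMef2d. Krt5 was near absent in sgControl, with 3, 0 and 1 counts, against 260 and 211 counts in sgMef2d. Of 4 fibroblast markers, all listed, Dcn was higher (adjusted p = 0.0203) and Col1a2 lower (adjusted p = 2.32e-04) by edgeR, with sums of 572–674 CPM in sgControl and 522–563 CPM in sgMef2d. Of the skeletal muscle markers, 1 of 5 was listed (Acta1, with its values given below), and of the leukocyte markers 2 of 4, together at most 2.29 CPM in any library. None of the 3 endothelial markers was listed. The part of these shifts in the results below was not tested, and in bulk RNA fewer cells of a type and less RNA per cell cannot be told apart.

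Among the members, the RNA of 1 gene, Hdac5, was lower in sgMef2d cells, and no change was called for the other 5, the targeted gene Mef2d included. Thus 1 of 6 passed the test, beside 7.95% of all genes tested, and 1 of 6 had CPM values that did not overlap between the groups, beside 41.1% of all genes. All 6 log2 fold changes were negative, with a median of -0.13, beside 6157 negative values among the 12483 genes and a median over all genes of 0.0031. The directions of Mef2c, Hdac4 and Hdac7 each turned under at least 1 alternative setting.

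Mef2d (ENSMUSG00000001419.17, chr3:88142372-88172086, plus strand) is the gene the guides target. The sgControl libraries, in the order of their replicate numbers here and below, gave 64.3, 76.9 and 71.5 CPM, and the sgMef2d libraries 64.2 and 65.8 CPM. The lowest sgControl library thus lay between the sgMef2d libraries, and the groups overlapped. The log2 fold change was -0.12 (SE 0.080, 95% interval -0.30 to 0.05), with an adjusted p of 0.400 by the quasi-likelihood test of edgeR (p-values adjusted by Benjamini-Hochberg). Between 975 and 1318 reads per library lay behind these values. A count per gene shows neither the sequence at the cut site nor the protein, so the level of the transcript does not check whether the gene was disrupted. For the protein, the paper reports by immunoblot that MEF2D was absent from the knockout EpH4 cells. An antisense gene, 1700113A16Rik, shares 531 exon bases with Mef2d, 8.87% of its exon sequence, and had 12 to 14 counts in every library. The strand setting of the counting was not given in the sources used here, so reads of that stretch cannot be assigned to either gene with certainty.

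Mef2a (ENSMUSG00000030557.17, chr7:67231163-67372858, minus strand) encodes a family member that binds the same element, alone or as a heterodimer with MEF2D. It was measured at 80.1, 95.6 and 96.4 CPM in sgControl and at 82.0 and 74.1 CPM in sgMef2d. Again sgControl replicate 1 lay between the sgMef2d libraries. The log2 fold change of -0.21 (SE 0.088, 95% interval -0.41 to -0.02) had an unadjusted p of 0.0338 and did not pass adjustment in edgeR's quasi-likelihood test (adjusted p = 0.172).

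Mef2c (ENSMUSG00000005583.16, chr13:83504034-83667080, plus strand) is the family member best known from heart, brain and lymphoid cells. Its counts were 39, 31 and 34 in sgControl and 40 and 23 in sgMef2d, which correspond to 1.90, 2.20 and 2.49 CPM and to 2.35 and 1.55 CPM. The sgMef2d libraries were far apart, and their range held 2 of the 3 sgControl values. The log2 fold change of -0.13 (SE 0.27) had a 95% interval from -0.73 to 0.47 (edgeR adjusted p = 0.826), so a change of that size in either direction was not detectable at this depth.

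Hdac5 (ENSMUSG00000008855.17, chr11:102194432-102230166, minus strand) encodes a class IIa deacetylase that shuttles between nucleus and cytoplasm and represses MEF2 in muscle and heart. Its counts were 866, 610 and 639 in sgControl and 582 and 508 in sgMef2d. After scaling these were 42.2, 43.3 and 46.8 CPM against 34.3 and 34.2 CPM. Every sgMef2d library lay below every sgControl library, as for 20.5% of all genes in this direction. The group means were 44.1 ± 2.42 (SD, n = 3) and 34.2 ± 0.0302 CPM (SD, n = 2). Hdac5 fell by 0.36 on the log2 scale (SE 0.077, 95% interval -0.53 to -0.19), with an adjusted p of 0.0146 by edgeR's quasi-likelihood test. The call did not hold without sgMef2d replicate 1 (log2 fold change -0.37, adjusted p = 0.149) or replicate 2 (-0.37, adjusted p = 0.166), where a lone sgMef2d library was assumed to vary like the sgControl libraries. Its promoter window holds the MEF2 consensus between -20 and -11 shown above, and so does that of Mef2a, which was not called. Whether the match bears on the level of Hdac5 was not tested.

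Hdac4 (ENSMUSG00000026313.16, chr1:91928779-92195699, minus strand) encodes a class IIa deacetylase with a prominent role in cartilage and muscle. It was measured at 51.7, 61.7 and 58.1 CPM in sgControl and at 49.4 and 57.3 CPM in sgMef2d. The groups overlapped, and the log2 fold change was -0.10 (SE 0.092, 95% interval -0.30 to 0.10, edgeR adjusted p = 0.574). Of its exon bases, 22.4% are shared with Gm26720, a long noncoding RNA gene on the opposite strand that was not analysed here.

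Hdac7 (ENSMUSG00000022475.19, chr15:97792664-97844502, minus strand), known from thymocytes and blood vessels, had the highest CPM of the 6 members. Its values were 133, 151 and 160 CPM in sgControl and 141 and 147 CPM in sgMef2d. Both sgMef2d libraries lay within the sgControl range. Its log2 fold change was -0.04 (SE 0.077, 95% interval -0.20 to 0.13, edgeR adjusted p = 0.829).

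**Figure D2:**
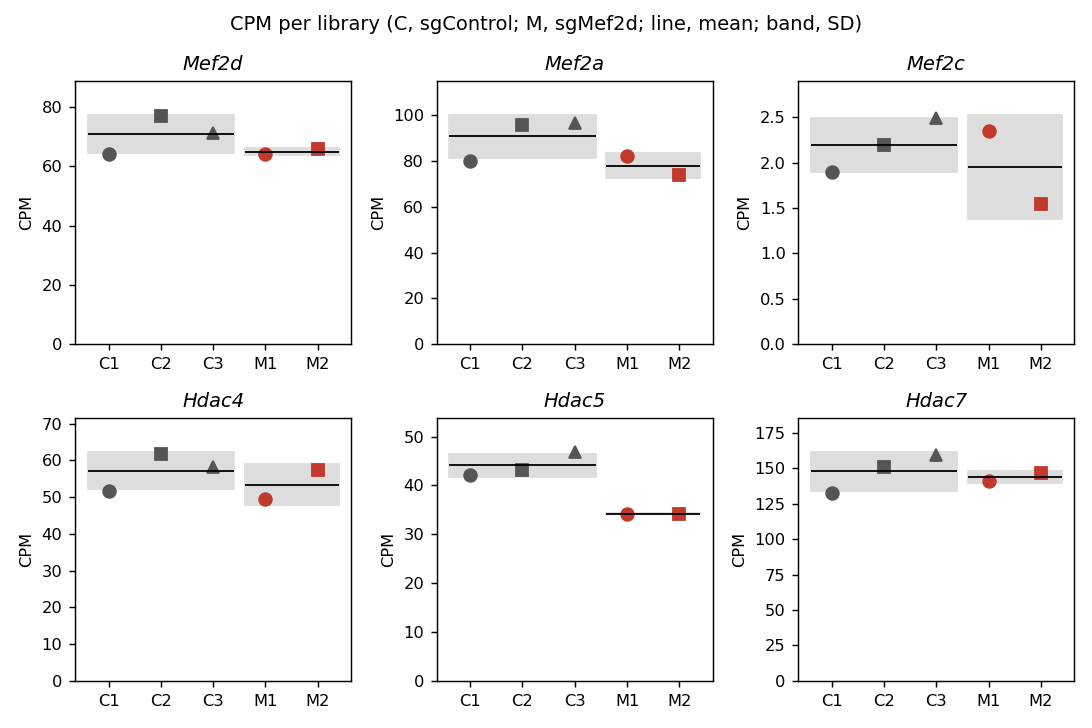
CPM (y axis, from 0) of each member in the 3 sgControl (C1 to C3) and 2 sgMef2d (M1, M2) libraries, with the group mean as a line and the SD as a band. Hdac5 alone separates the groups, with 42.2 to 46.8 CPM in sgControl above 34.3 and 34.2 CPM in sgMef2d, and for the other 5 genes the groups overlap.

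The library sgControl replicate 1 had the lowest sgControl value for all 6 members. Its log2 CPM differed from the mean of the other two sgControl libraries by -0.26 for Mef2a, -0.28 for Mef2c, -0.21 for Mef2d, -0.21 for Hdac4, -0.09 for Hdac5 and -0.22 for Hdac7. Over all genes tested the median of this difference was -0.00014, but it ran from 0.16 over the 1430 genes with a mean transcript length under 1 kb to -0.13 over the 2078 genes above 4 kb. Over the 4907 genes between 2 and 4 kb, where all 6 members fall by the mean length of their coding transcripts, it was -0.03. By the union of exons the members run from 5985 bases (Mef2d) to 15813 (Hdac4), all above 4 kb. The trend was not computed on that length, here or in the removal of the trend below.

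Without this library, 4 of 6 members were called lower in sgMef2d cells by edgeR's quasi-likelihood test, beside 14.8% of all genes in that direction and 14.6% in the other. On the log2 scale Mef2a then fell by 0.30 (adjusted p = 2.77e-06), Mef2d by 0.19 (adjusted p = 0.00550), Hdac4 by 0.17 (adjusted p = 0.0289) and Hdac5 by 0.40 (adjusted p = 4.96e-06). Hdac7 (adjusted p = 0.0528) and Mef2c (adjusted p = 0.612) remained without a call. With all 5 libraries and the trend with transcript length removed from each, Hdac5 was again the single member called (-0.36, adjusted p = 0.00396), and Mef2a (-0.20, adjusted p = 0.0910) and Mef2d (-0.11, adjusted p = 0.351) were not. The state of Mef2a, Mef2d and Hdac4 therefore turned on 1 control library. The call of Hdac5 did not hold without sgMef2d replicate 1 or 2, as given above, where a lone library remained in that group.

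**Figure D3:**
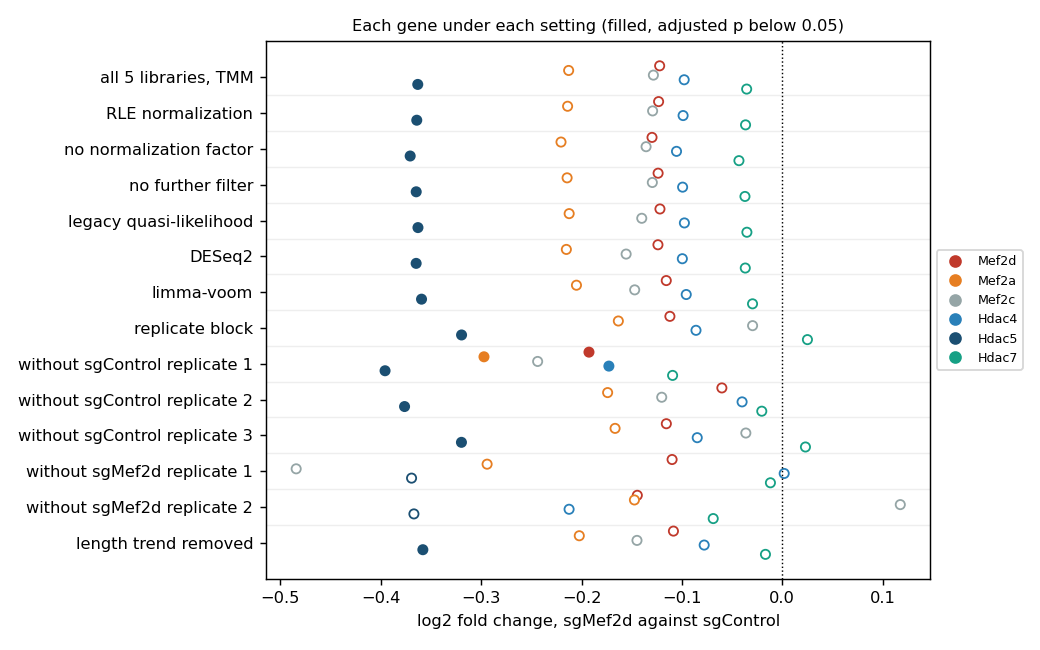
Log2 fold change of sgMef2d against sgControl (x axis) for each member under all 5 libraries and 13 alternative settings (y axis); filled points have an adjusted p below 0.05. Hdac5 stays between -0.40 and -0.32 throughout, while Mef2a, Mef2d and Hdac4 are filled only without sgControl replicate 1.

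The 7 other HDAC genes are given for comparison. None of them passed edgeR's quasi-likelihood test, beside 7.95% of all genes, so that their count is near that share. Of the 7, 0 had an unadjusted p below 0.05 by edgeR, beside 2901 of 12483 genes. DESeq2 and limma-voom called 0 as well, beside 804 and 942 of 12483 genes. Their log2 fold changes ran from -0.32 for Hdac11, the class IV enzyme, to 0.12, with a median of 0.04. Hdac11, which had the smallest p, was at 7.91 ± 0.717 CPM (SD, n = 3) in sgControl and 6.24 ± 0.827 CPM (SD, n = 2) in sgMef2d (95% interval of the log2 fold change -0.66 to 0.01, adjusted p = 0.232). Its interval overlaps that of Hdac5, whose log2 fold change of -0.36 was close to its own, and the difference between these genes was not tested. Without sgControl replicate 1, the class I gene Hdac2, named after its value was seen, was called higher (0.12, adjusted p = 0.0187). Hdac3, which supplies the deacetylase activity of the class IIa complexes, was measured at 84.5 ± 3.47 CPM (SD, n = 3) in sgControl and 83.3 ± 0.518 CPM (SD, n = 2) in sgMef2d (edgeR adjusted p = 0.874) and is named here after its value was seen.

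**Figure D4:**
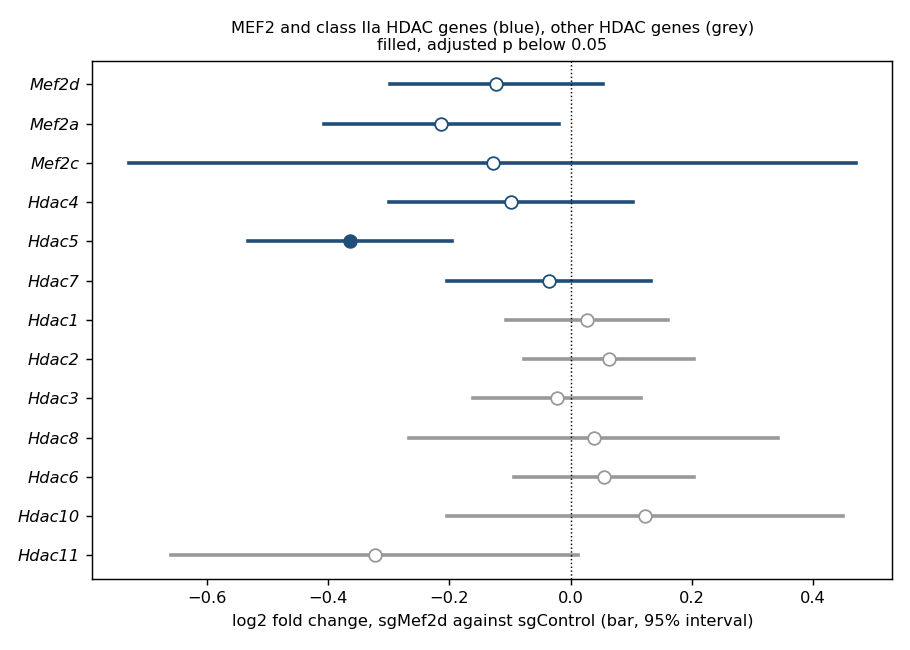
Log2 fold change of sgMef2d against sgControl (x axis) with its 95% interval (bar) for the 6 members in blue and the 7 other HDAC genes in grey; filled points have an adjusted p below 0.05. The interval of Hdac5, from -0.53 to -0.19, lies wholly below 0, as does that of Mef2a (-0.41 to -0.02), which did not pass adjustment.

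Levels of different genes were compared as RPKM, the CPM per kilobase of annotated exon sequence. The order by the mean over all 5 libraries was Hdac7 (21.7 RPKM), Mef2d (11.5), Mef2a (5.83), Hdac5 (4.57), Hdac4 (3.52) and Mef2c (0.134). Hdac7 ranked at the 80.0th percentile of all genes tested, Mef2d at the 64.8th and Mef2c at the 1.31st. The ranges over the 5 libraries overlapped between Mef2a and Hdac5 and between Hdac5 and Hdac4, although the gene ranked above was the higher of each pair in 5 of 5 libraries. Mef2d was above Mef2a by 1.82 to 2.18 times on this scale. With the mean length of the coding transcripts instead, the order of Mef2a (30.0 RPKM) and Mef2d (22.0) turned, as did that of Hdac4 (16.1) and Hdac5 (15.2). Hdac7 stayed at the top and Mef2c at the bottom on both scales.

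Summed by family, the 3 MEF2 genes reached 16.3, 19.5 and 18.7 RPKM in sgControl and 16.5 and 16.1 RPKM in sgMef2d. The sums overlapped, and an exact two-sided permutation test over the libraries gave p = 0.4, where 0.2 is the smallest p that 3 against 2 libraries allow. The 3 class IIa genes summed to 27.7, 31.2 and 32.6 RPKM in sgControl and 27.9 and 29.3 RPKM in sgMef2d (exact two-sided permutation p = 0.6). Neither test could have reached 0.05.

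The share of each gene in its family's RNA restates the values above. Hdac5 made up 17.3%, 15.8% and 16.3% of it in sgControl and 13.97% and 13.31% in sgMef2d. Hdac7 made up 70.9%, 71.7% and 72.4% in sgControl and 74.8% and 74.3% in sgMef2d. Neither share overlapped between the groups. The 41.1% of all genes without overlap refers to CPM, an unlike measure, and no such background was computed for shares. Because the shares of a family sum to a fixed total, a smaller share of Hdac5 raises that of the other genes by construction. The share of Hdac4 overlapped between the groups, from 11.2% to 12.5%. With the mean coding transcript length the mean share of Hdac4 was 21.4% in sgControl and 21.6% in sgMef2d, and that of Hdac5 21.6% and 18.1%. Within the MEF2 RNA, Mef2d supplied between 64.0% and 68.1% in every library, Mef2a between 31.3% and 35.2%, and Mef2c between 0.611% and 0.910%. With the mean coding transcript length this order turned, with Mef2a between 54.3% and 58.4%, Mef2d between 39.7% and 44.2% and Mef2c between 1.49% and 2.14%. Unless stated otherwise these shares are on the exon-length scale, and all were left untested and cover listed genes only.

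Genes that control the partnership were read from a list of 64 names, of which 61 were tested. In sgMef2d cells 1 of them rose and 2 fell, 4.92% in all beside 7.95% of all genes, and the median log2 fold change of the list was 0.03. Of 17 kinases that phosphorylate class IIa HDACs or act above those that do, 2 were lower. Sik1, a salt-inducible kinase, averaged 103 ± 6.70 CPM (SD, n = 3) in sgControl and 78.9 ± 1.29 CPM (SD, n = 2) in sgMef2d, so that it fell by 0.38 on the log2 scale (SE 0.070, edgeR adjusted p = 0.00679). Prkd1, which encodes protein kinase D1, went from 20.5 ± 1.40 (SD, n = 3) to 15.3 ± 0.525 CPM (SD, n = 2) and fell by 0.41 on the log2 scale (SE 0.10, edgeR adjusted p = 0.0288). Prkd1 was called under 8 of 13 alternative settings and lost its call in DESeq2 and without sgControl replicate 2 or 3 or sgMef2d replicate 1 or 2. Its log2 fold change ran from -0.47 to -0.37 over all 13. Prkd2, Prkd3, Sik2 and Sik3, their nearest relatives on the list and named after their values were seen, were not called, with log2 fold changes of 0.07, -0.10, -0.09 and 0.04. Of these, Prkd3 alone was called lower by edgeR without sgControl replicate 1 (-0.16, adjusted p = 0.00652).

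Of the 7 genes for 14-3-3 proteins, which hold phosphorylated class IIa HDACs in the cytoplasm, Sfn (14-3-3 sigma, an epithelial form) was the single one called, beside 7.95% of all genes. It was measured at 76.2, 60.8 and 63.2 CPM in sgControl and at 94.3 and 91.8 CPM in sgMef2d, a log2 fold change of 0.47 (SE 0.090, edgeR adjusted p = 0.00783). Without sgControl replicate 1, Ywhae (14-3-3 epsilon), named after its value was seen, was also called higher by edgeR (0.11, adjusted p = 0.00828). The basal epithelial markers moved in the direction of Sfn, as given above, and their part in its value was not tested.

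No change was called by edgeR's test among the 9 phosphatase genes, the 12 genes for kinases that act on MEF2 or the 8 co-repressor genes. The 7 co-activator genes and Xpo1, the exporter, had no call either, beside 7.95% of all genes. In that order, 1, 3, 0, 2 and 1 had an unadjusted p below 0.05 by the same test, beside 2901 of 12483 genes. The co-repressor genes lay between -0.13 and 0.13 on the log2 scale. Without sgControl replicate 1, 23 of the 61 regulators were called (10 higher, 13 lower), beside 29.4% of all genes. The regulator calls did not hold without sgMef2d replicate 1 or 2, where a lone library remained in that group. DESeq2 called 2 of the 61, losing Prkd1, beside 804 of 12483 genes. Removal of the length trend raised the number to 6, beside 1401 of 12483 genes.

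Known MEF2 targets were read from a list of 36 names, of which 22 were listed and 21 tested. In sgMef2d cells 2 rose and 2 fell, 19.0% in all beside 7.95% of all genes. The list was chosen with earlier results of these data known, so these shares describe the list and do not test it. The list's median was -0.13 with Mef2c itself included. The other 17 were not called, although 11 of the 21 had an unadjusted p below 0.05, beside 2901 of 12483 genes. Of the 21 log2 fold changes 14 were negative, beside 6157 of 12483 over all genes.

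Arc, an activity-induced gene best known from synapses, was the target with the largest rise. It was measured at 5.27, 4.89 and 5.35 CPM in sgControl and at 11.2 and 10.1 CPM in sgMef2d, a log2 fold change of 1.05 (SE 0.13, edgeR adjusted p = 8.49e-04). Cdkn1a, which encodes the cell cycle inhibitor p21, averaged 45.8 ± 1.31 (SD, n = 3) and 65.5 ± 0.212 CPM (SD, n = 2), a rise of 0.52 on the log2 scale (SE 0.065, edgeR adjusted p = 7.88e-04). Both were called under all 13 alternative settings.

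Rhob and Klf6 were the targets that fell. Rhob, a small GTPase of the actin cytoskeleton, went from 86.5 ± 1.94 (SD, n = 3) to 68.6 ± 0.0885 CPM (SD, n = 2) and fell by 0.33 on the log2 scale (SE 0.061, edgeR adjusted p = 0.00668), and was called under 11 of 13 settings, with log2 fold changes from -0.35 to -0.32 over all 13. Klf6, a zinc finger transcription factor, went from 170 ± 6.12 (SD, n = 3) to 145 ± 5.33 CPM (SD, n = 2) and fell by 0.23 on the log2 scale (SE 0.060, edgeR adjusted p = 0.0391), and was called under 10, with log2 fold changes from -0.27 to -0.20. The classic signal-induced targets Nr4a1, Jun, Fos and Egr1, named after their values were seen, were not called, with log2 fold changes of -0.19, 0.26, 0.62 and 0.56. The values of Jun, Fos and Egr1 moved with single libraries. Fos was measured at 7.36 and 3.50 CPM in the sgMef2d libraries, and over the 13 settings its log2 fold change ran from -0.05 (without sgMef2d replicate 1) to 1.02, that of Egr1 from 0.14 to 0.85 and that of Jun from 0.11 to 0.39. Without sgControl replicate 1, Jun (0.31, adjusted p = 9.46e-05) and Fos (0.62, adjusted p = 0.0318) were called higher by edgeR. Without sgControl replicate 1, 9 of 20 targets were called (4 higher, 5 lower), beside 29.4% of all genes. Without sgMef2d replicate 1, 2 of 22 were called (2 higher), beside 1.88% of all genes, and without sgMef2d replicate 2, 3 of 21 (3 higher), beside 1.83%, of which 2 were among the 4 called with all libraries.

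Of the 13 muscle targets, 3 were listed and 2 tested, Acta1 and Myom1. Acta1, skeletal muscle actin, went from 1.80 ± 0.498 to 0.913 ± 0.0424 CPM (n = 3 and 2, edgeR adjusted p = 0.137). Myom1, a sarcomere M-band protein gene, went from 1.56 ± 0.242 to 0.677 ± 0.291 CPM (n = 3 and 2, edgeR adjusted p = 0.0915). Neither passed the test, and both are named after their values were seen. Without sgControl replicate 1 both were called lower by edgeR (Acta1 -1.14, adjusted p = 0.0149, and Myom1 -1.25, adjusted p = 0.0170). Between 7 and 32 counts per library lay behind these values.

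**Figure D5:**
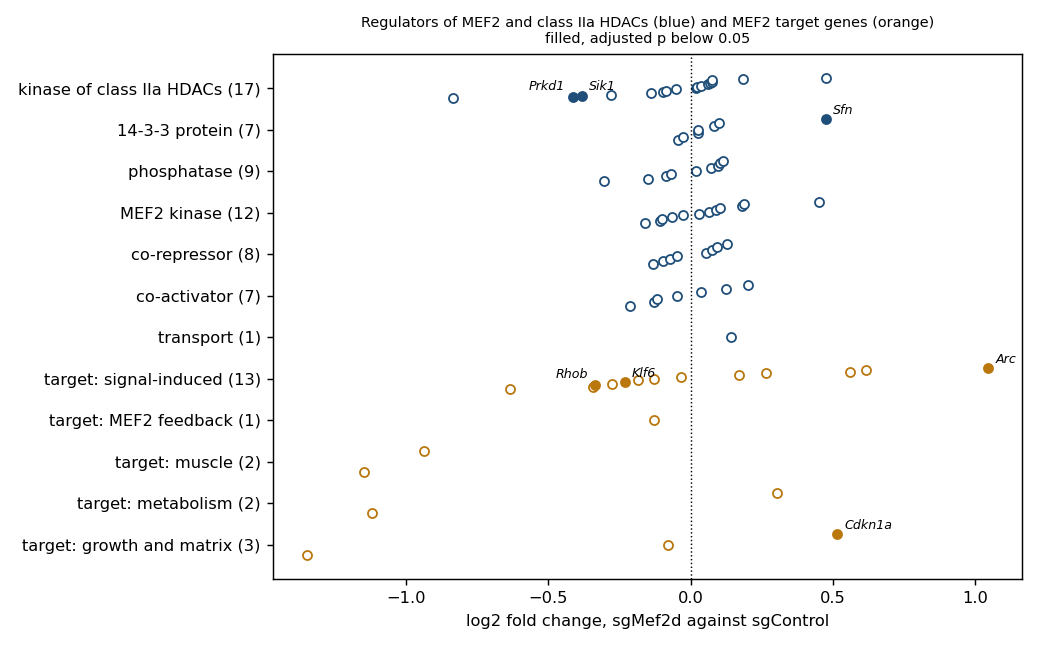
Log2 fold change of sgMef2d against sgControl (x axis) for each tested regulator (blue) and MEF2 target (orange), by role on the y axis with the number of genes tested; filled points have an adjusted p below 0.05. Filled are Prkd1, Sik1 and Sfn among the regulators, and Rhob, Klf6, Arc and Cdkn1a among the targets, which lie on both sides of 0.

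The genes whose profile over the 5 libraries was nearest to a member's were sought among the 8045 genes whose log2 CPM averaged 4 or more, by the root mean square distance of centred log2 CPM. Nearest to Mef2d were Kif3b (0.0177), Myo9b (0.0187) and Man1a2 (0.0200), where the median gene lay at 0.133. Like Mef2d, none of the 3 was called. Nearest to Hdac5 were Dennd4a (0.0184), Trps1 (0.0227) and Sesn3 (0.0241), where the median gene lay at 0.202. All 3 were lower in sgMef2d cells, with log2 fold changes of -0.39, -0.35 and -0.35. With 5 libraries in 2 groups, such likeness describes the libraries only.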

How the data were processed

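Poly(A) RNA of 3 sgControl and 2 sgMef2d EpH4 libraries was analysed. The authors deposited raw counts per gene, whole numbers without normalization, made from reads aligned with STAR to GRCm38; the submitters' processing notes also name CASAVA and Subread. The deposited genes all reached 11 counts in at least 1 library, so a filter on low counts had been applied. All 12934 identifiers matched GENCODE M21.

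Counts were scaled by TMM, filtered by group with default settings and tested with the quasi-likelihood test of edgeR 4.0.16 (R 4.3.3, bias-adjusted form, no block), with Benjamini-Hochberg adjustment over 12483 genes and a threshold of 0.05. Family sums were compared by exact permutation tests. A count of 3 corresponded to 0.146 to 0.220 CPM, and intervals cover counting and replicate error only. The members and all gene lists were chosen with earlier results of these data known. Named were all members, list genes past the threshold (at most the 8 with the smallest p per list, failing any the 1 with the smallest p), and the 3 profiles nearest to Mef2d and to the member with the smallest p. Genes named outside this rule, after their values were seen, are marked where they are described.

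Alternatives were RLE or no normalization factors, no further filter, the legacy test, DESeq2 1.42.0, limma-voom (limma 3.58.1), a replicate block, each library left out, and coding transcript length for RPKM. Removal of a loess trend with transcript length was added after seeing the data. The scripts were tested on simulated counts.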

Additional observations from a re-analysis of the deposited data

How the results depend on the processing

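Under the other normalizations, filter and tests, Hdac5 was the single member called, and over all 13 alternatives its adjusted p lay between 4.96e-06 and 0.166. When each library was left out in turn, the number of genes called ranged from 234 to 3639, of members from 0 to 4, of regulators from 0 to 23, of MEF2 targets from 2 to 9 and of other HDAC genes from 0 to 1. The log2 fold changes then ranged from -0.30 to -0.15 for Mef2a, -0.48 to 0.12 for Mef2c, -0.19 to -0.060 for Mef2d, -0.21 to 0.0019 for Hdac4, -0.40 to -0.32 for Hdac5 and -0.11 to 0.023 for Hdac7. The sign turned for Mef2c without sgMef2d replicate 2 (0.12), for Hdac4 without sgMef2d replicate 1 (0.0019) and for Hdac7 without sgControl replicate 3 (0.023). Calls lost without an sgMef2d library rest on a lone library in that group. With the trend of transcript length removed, chosen after seeing the data, 1401 genes and 6 regulators were called.

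With the replicate number as a block, 1254 genes were called, 901 of them shared with the 992, Hdac5 fell by 0.32 on the log2 scale (adjusted p = 0.0168), Hdac7 turned to 0.025 and the number of MEF2 targets called rose from 4 to 8. Nothing in the labels pairs the libraries, and the deviations of libraries with the same number correlated at 0.011 and -0.00092 over 12483 genes.

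With mean coding transcript length, levels in RPKM became 43.8 for Hdac7, 30.0 for Mef2a, 22.0 for Mef2d, 16.1 for Hdac4, 15.2 for Hdac5 and 0.962 for Mef2c, and the sums became 53.0 for the MEF2 genes and 75.1 for the class IIa genes. Hdac9 could not be fitted. The causes of these changes were not tested beyond what each setting alters by its construction. Depth limits genes with few counts, such as Mef2c with 23 to 40 counts per library.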

Other observations

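Over all genes tested, 9362 matched a promoter window by symbol and 180 of these had the MEF2 consensus in at least 1 window. Of the 180, 7 were higher and 10 lower in sgMef2d cells by edgeR's quasi-likelihood test, 9.44% in all, beside 7.75% of the 9182 genes without it. Their median log2 fold change was -0.016, beside 0.0052. The difference between these shares was not tested. Chosen after their values were seen, the genes with the smallest adjusted p among the 180 were Cp, the copper carrier ceruloplasmin, which fell by 0.87 on the log2 scale from a mean of 446 to 244 CPM, and Ak1, an adenylate kinase, whose log2 fold change was 1.14, from 13.8 to 30.6 CPM. Hdac5 was among the 10 that were lower, and Mef2a, the other member with the consensus, was not called.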
